A study of Homo sapiens with 2 samples.

Results

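The genes described here encode enzymes that write and remove chemical marks on histones and DNA, together with the chromobox proteins that read methylated histones. They were the protein-coding rows of the deposited gene table whose symbols begin with KMT, SETD or EZH (lysine methyltransferases), KAT (acetyltransferases), PRMT (arginine methyltransferases), DNMT (DNA methyltransferases), KDM (lysine demethylases), HDAC or SIRT (deacetylases), TET (methylcytosine dioxygenases) or CBX (chromobox proteins). The rule used symbols alone and found 85 of the 40205 rows. Of these, 75 had a mean of at least 1 FPKM (fragments counted per kilobase of a gene, relative to library size) and are called expressed below. The 10 others were TET1, KDM4D, KDM4E, KDM5D, KDM8, HDAC4, HDAC6, SIRT4, PRMT8 and DNMT3L.

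The cells were RKO, a line from a human colon carcinoma. They had received a control siRNA (1 library) or an siRNA against SRSF1 (1 library), a splicing regulator of the SR protein family, and RNA was taken 48 h later. The labels do not give the number or sequence of the siRNAs. With 1 library per group no test was possible, so no difference below has a replicate check and no p-values are given. SRSF1 itself was at 103 FPKM in the control library and at 32.7 FPKM in the SRSF1 siRNA library, which left 31.7% of the control level. The control library held 23138519 counted fragments and the other 23852089, and the median expressed member had at least 869 and 863 of them. Of the 5 epithelial markers looked up, EPCAM, KRT8 and KRT18 were expressed at 3.62 to 88.4 FPKM, while KRT19 and CDH1 were listed at 0 in both libraries. The intestinal markers CDX2 and CA2 were at 4.90 to 6.23 FPKM, VIL1 was listed at 0, and MUC2 was at or near 0. Markers of fibroblasts, endothelium, leukocytes and red cells were at 0.0142 FPKM or lower.

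Histone tails carry methyl and acetyl groups that are added by writers, taken off by erasers and bound by readers, and this cycle sets how accessible and how active a gene is. Methylation of lysine 4 of histone H3 marks promoters and enhancers, methylation of lysine 27 is laid down by the Polycomb machinery for silencing, and methylation of lysine 9 recruits heterochromatin protein 1. In colon cancer cells DNMT1, together with DNMT3B, keeps up the DNA methylation that silences tumour suppressor promoters.

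Across the 75 expressed members the differences between the libraries were small and went both ways. By the rule used here for a change, a difference of at least 1.5-fold on the log2(FPKM + 1) scale, 2 members rose (PRMT6 and CBX5) and 1 fell (KDM3A). Among all 10064 expressed mRNA rows, 0.755% passed the rule upwards and 3.23% downwards. The members' shares were 2.67% and 1.33%, on counts of 2 and 1. Their share of rises was above that of all rows under all 7 alternative settings, and their share of falls under 4 of the 7, so the smaller share of falls depends on the processing. All settings reuse the same 2 libraries, and 1 member of 75 is already 1.33%, so the 7 are no independent evidence of more rises. With the trend on length and GC content removed, 1 member made up the share of rises. None reached 2-fold in either direction, where the shares over all mRNA rows were 0.0994% and 0.129%. In bulk RNA, fewer cells that express a gene and less RNA per cell cannot be told apart. The median log2(FPKM + 1) difference, SRSF1 siRNA minus control, was -0.02 over the members and -0.05 over all expressed mRNA rows, and the SD across genes was 0.30 and 0.26. Just outside the rule lay SETD7 with a log2 difference of 0.58, PRMT3 with -0.57, SETDB2 with -0.56 and SIRT3 with -0.55, against 0.60 for CBX5 and -0.63 for KDM3A just inside it.

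The exact 95% counting interval of the FPKM ratio lay above 1 for 25 members (33.3%) and below 1 for 29 (38.7%), against 20.8% and 36.0% of all expressed mRNA rows. These intervals cover the counting of fragments in these libraries only, not the spread between cultures.

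**Figure D1:**
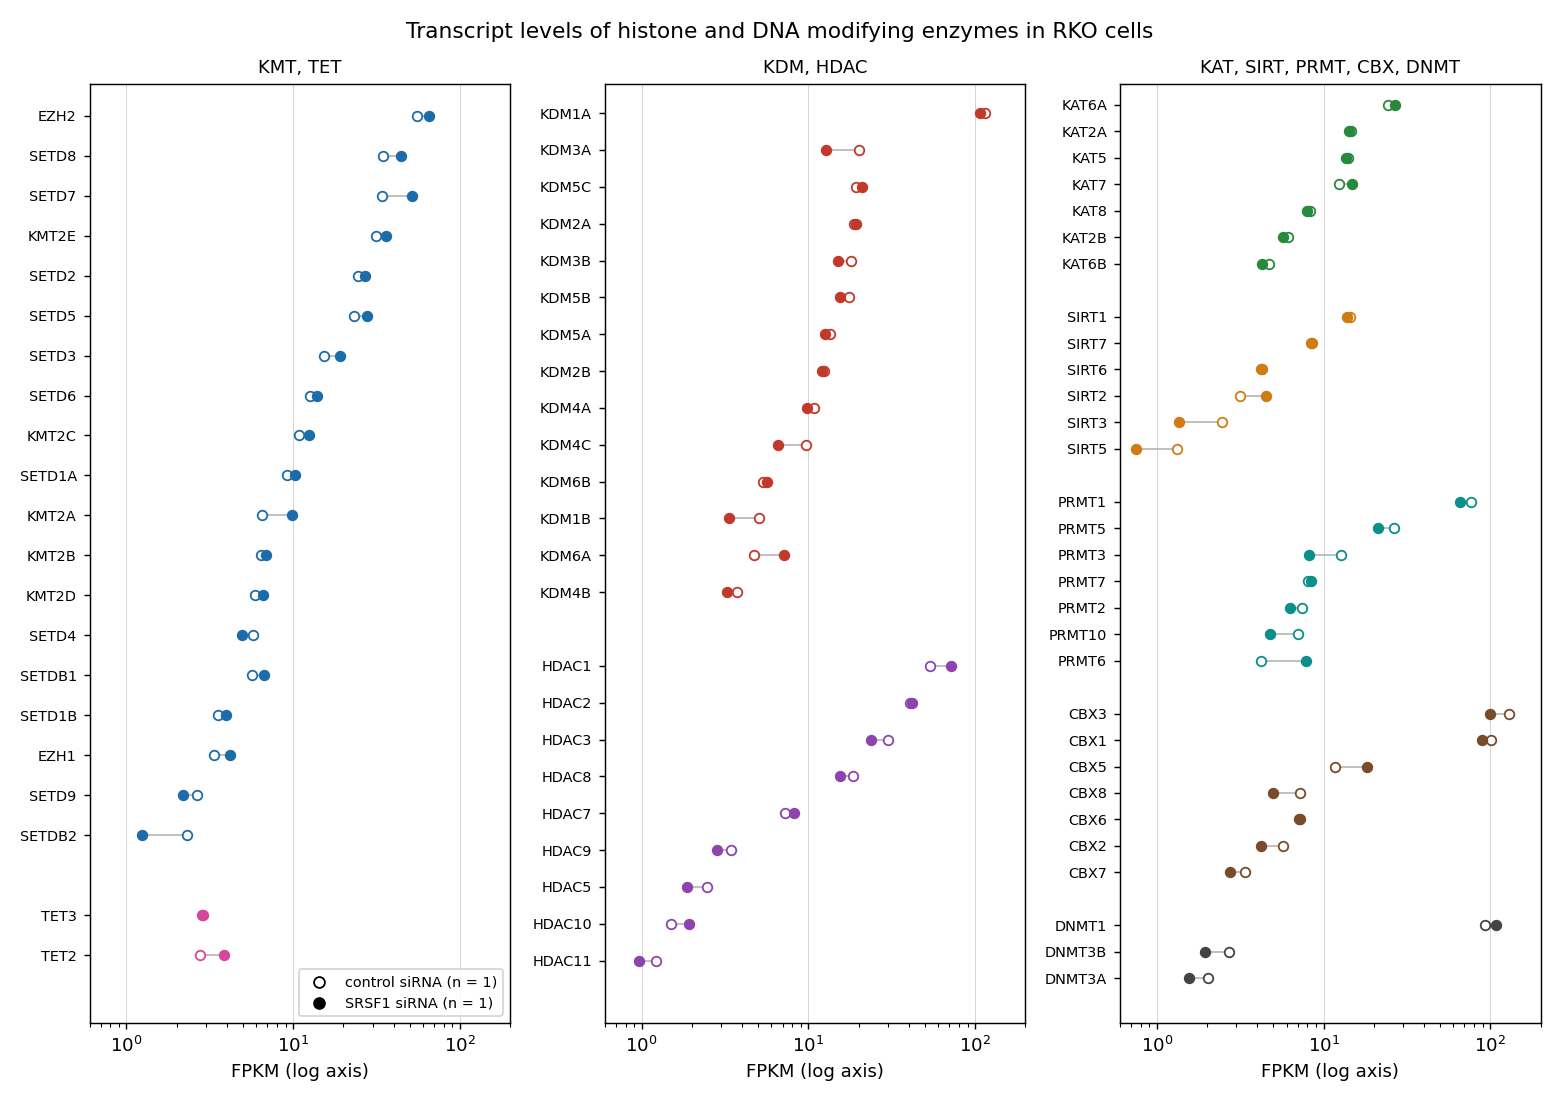
FPKM (log axis) of 74 of the 75 expressed members in the control siRNA library (open circles) and the SRSF1 siRNA library (filled circles), ordered by control level within each activity group. CBX3, KDM1A, CBX1 and DNMT1 have the highest control levels, and PRMT6, CBX5 and KDM3A have gaps of at least 1.5-fold on the log2(FPKM + 1) scale.

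The 3 members that passed the rule are introduced with their promoters, from 250 bases before to 50 after the annotated start (RefSeq, GRCh38.p14). CBX3 is added because, like CBX5, it starts back to back with an abundant hnRNP gene, as described with the readers. Capitals mark ACGTG or GCGTG on either strand, the core bound by hypoxia-inducible factor, of which KDM3A is a known target. CBX5 holds ACGTG inside CACGTG, which reads the same on both strands.
PRMT6: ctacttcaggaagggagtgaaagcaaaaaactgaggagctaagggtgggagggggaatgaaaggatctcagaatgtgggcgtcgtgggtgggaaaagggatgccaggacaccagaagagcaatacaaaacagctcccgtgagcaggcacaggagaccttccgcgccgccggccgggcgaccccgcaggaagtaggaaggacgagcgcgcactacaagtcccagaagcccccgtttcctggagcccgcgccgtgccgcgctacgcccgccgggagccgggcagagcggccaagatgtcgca
CBX5: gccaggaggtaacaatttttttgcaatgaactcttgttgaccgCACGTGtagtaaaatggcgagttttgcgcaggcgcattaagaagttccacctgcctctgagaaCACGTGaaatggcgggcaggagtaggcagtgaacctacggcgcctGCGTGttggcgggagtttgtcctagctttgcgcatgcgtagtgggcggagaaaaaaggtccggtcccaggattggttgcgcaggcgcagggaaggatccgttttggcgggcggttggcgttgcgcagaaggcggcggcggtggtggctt
KDM3A: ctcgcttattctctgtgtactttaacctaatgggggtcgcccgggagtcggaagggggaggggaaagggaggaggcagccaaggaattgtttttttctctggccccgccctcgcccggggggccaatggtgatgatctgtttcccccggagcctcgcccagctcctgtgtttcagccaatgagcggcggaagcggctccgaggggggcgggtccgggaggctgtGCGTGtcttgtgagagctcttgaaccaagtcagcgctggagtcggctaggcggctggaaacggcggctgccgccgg
CBX3: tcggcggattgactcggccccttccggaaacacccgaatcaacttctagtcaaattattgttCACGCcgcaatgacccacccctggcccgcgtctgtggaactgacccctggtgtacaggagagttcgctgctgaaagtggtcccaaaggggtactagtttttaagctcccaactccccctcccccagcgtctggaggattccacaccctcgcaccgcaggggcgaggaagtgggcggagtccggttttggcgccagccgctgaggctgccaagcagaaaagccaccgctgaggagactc
They lie at chr1:107056424-107056723 on the plus strand, chr12:54280073-54280372 on the minus strand, chr2:86441121-86441420 on the plus strand and chr7:26201193-26201492 on the plus strand. The core was present 3 times for CBX5, counting each CACGTG once, and 1 time each for KDM3A and CBX3, and it was absent from this window for PRMT6. At least 1 core was found in 48.4% of all 35116 promoters in the RefSeq table and in 47 of the 67 promoters of expressed members that could be matched (70.1%). Member promoters were also richer in CpG, with a median of 30 CpG against 14 over all promoters, and both cores contain a CpG.

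Lysine methyltransferases formed the group whose members lay most often above their control level. All 19 of KMT, SETD and EZH were expressed, and 16 were higher and 3 lower in the SRSF1 siRNA library. None passed the rule, although the plain FPKM ratios of KMT2A, SETD7 and SETDB2 lay beyond 1.5-fold. A difference above 0 was found in 40.1% of all expressed mRNA rows and in 84.2% of these 19. Their median log2 difference was 0.19. The split of 16 against 3 was the same under every scaling, pseudocount and trend setting tried, except that 14 and 1 remained to be counted at a mean of at least 5 FPKM.

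The genes of the MLL/SET1 family, whose products apart from KMT2E methylate lysine 4 of histone H3, were higher in 7 of 7 cases. KMT2A (MLL1), a gene broken by translocations in leukaemia, was at 6.50 FPKM in the control and 9.79 FPKM in the SRSF1 siRNA library, a ratio of 1.51 (counting interval 1.43 to 1.59). KMT2A was rank 122 from the top among the 10064 mRNA rows. The other members of this subgroup stayed between 1.08 and 1.15 times. KMT2C and KMT2D, which act at enhancers, went from 10.8 to 12.4 FPKM and from 5.90 to 6.60 FPKM. KMT2B went from 6.38 to 6.87 FPKM, SETD1A from 9.22 to 10.2 FPKM and SETD1B from 3.56 to 3.94 FPKM, and for KMT2B and SETD1B the counting interval included 1. KMT2E, which has lost the catalytic activity of its relatives, was the most abundant of the 7, at 31.3 and 35.9 FPKM.

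Transcript length moved with these values. The MLL/SET1 genes have longest annotated transcripts of 6451 to 19419 bases, against a median of 3728 over expressed mRNA rows. Among 1632 mRNA rows with transcripts at least as long as the shortest of them, 52.6% were above 0 and the median log2 difference was 0.02, below the 0.14 of the 7. The median rose from -0.16 in the shortest decile of all mRNA rows to 0.03 in the longest decile. After a trend on length and GC content was removed, all 7 were still above 0, with a median of 0.10. The 19 lysine methyltransferases kept 16 above 0, with a median of 0.13.

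**Figure D2:**
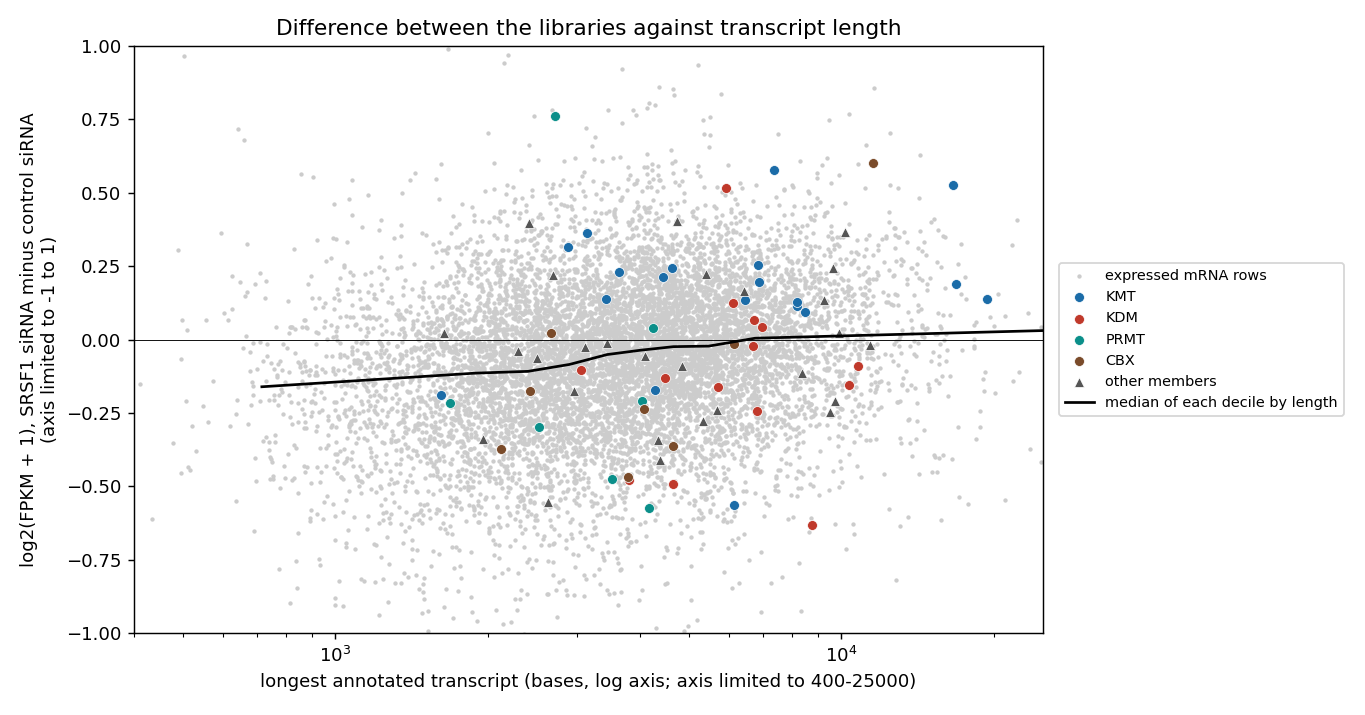
Log2(FPKM + 1) difference, SRSF1 siRNA minus control siRNA, against the longest annotated transcript in bases (log axis). Grey points are expressed mRNA rows, coloured points and triangles are the 75 expressed members, and the black line joins the medians of deciles by length, which run from -0.16 to 0.03.

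Of the writers of lysine 27 methylation, EZH2, the catalytic subunit of Polycomb repressive complex 2 in dividing cells, was at 55.6 and 65.3 FPKM, a ratio of 1.18 (1.12 to 1.23). Its paralog EZH1 was at 3.37 and 4.17 FPKM (1.24 times). The balance between them hardly differed, with EZH2 at 16.5 times EZH1 in the control and 15.7 times in the SRSF1 siRNA library.

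The SETDB genes parted. SETDB1, which methylates lysine 9 of histone H3 at silenced repeats, was at 5.63 and 6.69 FPKM (1.19 times), and SETDB2 was at 2.31 and 1.24 FPKM, a ratio of 0.538 (0.367 to 0.780). SETDB2 had the lowest ratio of all 75 members, yet its low level kept it short of the rule on the log2(FPKM + 1) scale. SETDB2 rests on at least 83 and 46 fragments, the smallest counts that fit. In GENCODE 29 SETDB2 starts 248 bases from CAB39L on the opposite strand, and CAB39L was higher, at 3.77 and 8.03 FPKM (2.13 times, 1.86 to 2.44).

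Among the remaining SETD genes, 6 of 8 were above their control level (75%, against 40.1% of all expressed mRNA rows). SETD7, a monomethyltransferase of histone H3 and of other proteins, had the highest log2 difference of the 19 (0.58) and was at 34.2 and 51.4 FPKM, a ratio of 1.51 (1.46 to 1.56). SETD8 (also called KMT5A), which monomethylates lysine 20 of histone H4 during the cell cycle, was at 34.5 and 44.5 FPKM (1.29 times, 1.22 to 1.37). SETD7 and SETD8 are abundant, and their fragment counts of 2193 to 8605 leave narrow counting intervals. SETD2, which places lysine 36 trimethylation along transcribed genes, was at 24.4 and 26.8 FPKM, and SETD5 at 23.2 and 27.8 FPKM. SETD3, an actin histidine methyltransferase, was at 15.2 and 19.2 FPKM (1.26 times), and SETD6, which methylates a subunit of NF-kappa B, at 12.6 and 13.98 FPKM. On the lower side stood SETD4 (5.71 and 4.96 FPKM) and SETD9 (2.64 and 2.19 FPKM).

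Genes of lysine methyltransferase families under other names had another split. Of 19 expressed ones, among them EHMT1, SUV39H2, NSD1 and DOT1L, 5 were above and 14 below their control level. The 5 made up 26.3%, against 40.1% of all expressed mRNA rows, and the median log2 difference of the 19 was -0.10. Put together with the KMT, SETD and EZH genes, 21 of 38 were above their control level (55.3%), with a median of 0.06. Not all of the 38 have this activity, since KMT2E and SETD3 are among them, and that of the others was not checked. The extremes of the 19 under other names were PRDM2 at 1.23 times (1.14 to 1.33) and PRDM4 at 0.723 times (0.675 to 0.775). Of the 10 other subunits of MLL/SET1 complexes looked up, 2 were above (20%, against 40.1% of all expressed mRNA rows) and 8 below. The median of the 10 was -0.10, against -0.05 over all expressed mRNA rows. With the trend on length and GC taken out, the medians were -0.12 and -0.06. HCFC1 was at 1.39 times (1.30 to 1.48), while DPY30 was at 0.852 times (0.759 to 0.957). The core subunit WDR5 was at 41.4 and 36.1 FPKM and ASH2L at 15.3 and 14.2 FPKM.

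Of the 9 subunits of Polycomb repressive complex 2, MTF2 rose from 28.7 to 45.0 FPKM (1.57 times, 1.495 to 1.646). It helps to bring the complex to CpG islands. Of all 143 expressed partner genes, MTF2 alone passed 1.5-fold on the log2(FPKM + 1) scale in either direction. This is 0.699% of them upwards, near the 0.755% of all expressed mRNA rows, and 0% downwards against 3.23%. By the plain FPKM ratio, RCOR3 (1.56 times, 1.39 to 1.76), MBD2 (1.51 times) and JMJD7 (0.585 times) also lay beyond 1.5-fold. SUZ12 was at 51.9 and 59.0 FPKM and EED at 0.996 times its control level. The list's median was 0.01. In the Polycomb repressive complex 1 list none of 13 passed, and the median was 0.04, with YAF2 at 1.27 times (1.14 to 1.41) and PCGF6 at 0.800 times (0.716 to 0.894).

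The 7 acetyltransferases of the KAT family lay closest to their control levels. All stayed between 0.907 and 1.20 times, and none passed 1.5-fold. The most abundant was KAT6A (MOZ), at 24.5 and 26.9 FPKM, and the highest difference was that of KAT7 (HBO1), which acetylates histone H3 and H4 around replication origins, at 12.3 and 14.8 FPKM (1.20 times, 1.103 to 1.301). KAT6B was lowest by ratio, at 4.69 and 4.26 FPKM (0.907 times, 0.826 to 0.996). KAT2A and KAT2B, the GCN5 and PCAF enzymes, were at 14.5 and 14.2 FPKM and at 6.12 and 5.68 FPKM. KAT5 (TIP60), which acetylates ATM after DNA damage, was at 13.9 and 13.5 FPKM, and KAT8 (MOF) at 8.34 and 7.96 FPKM. For KAT2A, KAT2B, KAT5 and KAT8 the counting interval included 1. The sign of the group's median, -0.04, turned under quantile normalization (0.00) and with the trend on length and GC taken out (0.01).

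Acetyltransferases under other names had a median of 0.02 over 7 genes, from NAA40 at 0.758 times (0.674 to 0.852) to CREBBP at 1.21 times (1.13 to 1.30). The 25 subunits of acetyltransferase complexes had a median of 0.00, between TADA3 at 0.781 times (0.708 to 0.861) and ING4 at 1.44 times (1.15 to 1.81).

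Arginine methyltransferases held the largest single change on the log2(FPKM + 1) scale. PRMT6, which dimethylates arginine 2 of histone H3 and so opposes lysine 4 methylation, rose from 4.22 to 7.86 FPKM, a ratio of 1.86 (1.60 to 2.17) on 259 and 497 fragments. Only 0.288% of expressed mRNA rows had a higher difference. From recovered counts without a pseudocount, the log2 difference of PRMT6 was 0.90 and that of SETDB2 was -0.90, nearly the same size. PRMT6 lies on chromosome 1 from 107056679 to 107067636 on the plus strand (GENCODE 29, GRCh38). Its share of the family's summed FPKM went from 2.96% to 6.41%.

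The other expressed PRMT genes, apart from PRMT7 at 8.12 and 8.37 FPKM, were below their control level. PRMT3, a cytosolic enzyme that methylates a ribosomal protein, was lowest at 12.7 and 8.18 FPKM (0.646 times, 0.577 to 0.721), with PRMT10 (now PRMT9, which methylates a splicing factor) at 7.07 and 4.80 FPKM (0.680 times, 0.594 to 0.777). PRMT5, which makes symmetric dimethylarginine on histones and on Sm proteins of the spliceosome, was at 26.3 and 21.2 FPKM (0.807 times, 0.748 to 0.870). PRMT1, the main source of asymmetric dimethylarginine and the most abundant of the family, was at 76.5 and 65.6 FPKM (0.858 times), and PRMT2 at 7.41 and 6.27 FPKM. With 2 above (28.6%, against 40.1% of all expressed mRNA rows) and 5 below, the median was -0.22. This median kept its sign under every setting tried. Among arginine methyltransferases under other names, CARM1 (PRMT4) was at 25.7 and 23.0 FPKM (0.895 times, 0.781 to 1.03) and NDUFAF7, a mitochondrial enzyme, at 13.996 and 18.4 FPKM (1.31 times, 1.19 to 1.45).

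The transcripts of the 3 expressed DNA methyltransferases did not all differ in the same direction, and methylation itself was not measured. DNMT1, which copies methylation onto the new strand after replication, was at 92.6 and 108 FPKM, a ratio of 1.17 (1.14 to 1.20), and made up 95.1% and 96.9% of the family's FPKM. DNMT3A and DNMT3B, which methylate unmarked DNA, were scarce, at 2.03 and 1.56 FPKM (0.766 times, 0.621 to 0.944) and at 2.72 and 1.93 FPKM (0.711 times, 0.589 to 0.856). Neither passed 1.5-fold. Among 11 partners and readers of DNA methylation the median was 0.02, from TDG at 0.814 times (0.743 to 0.892) to PCNA at 1.11 times (1.08 to 1.14).

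Of the TET enzymes, which oxidise methylcytosine, TET2 was at 2.74 and 3.83 FPKM (1.40 times, 1.17 to 1.68) and TET3 at 2.87 and 2.82 FPKM (0.984 times, 0.890 to 1.09). The order of the pair changed, with TET3 at 1.04 times TET2 in the control and 0.735 times in the SRSF1 siRNA library. TET1 had 5 fragments in the control library and was listed at 0 in the other.

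**Figure D3:**
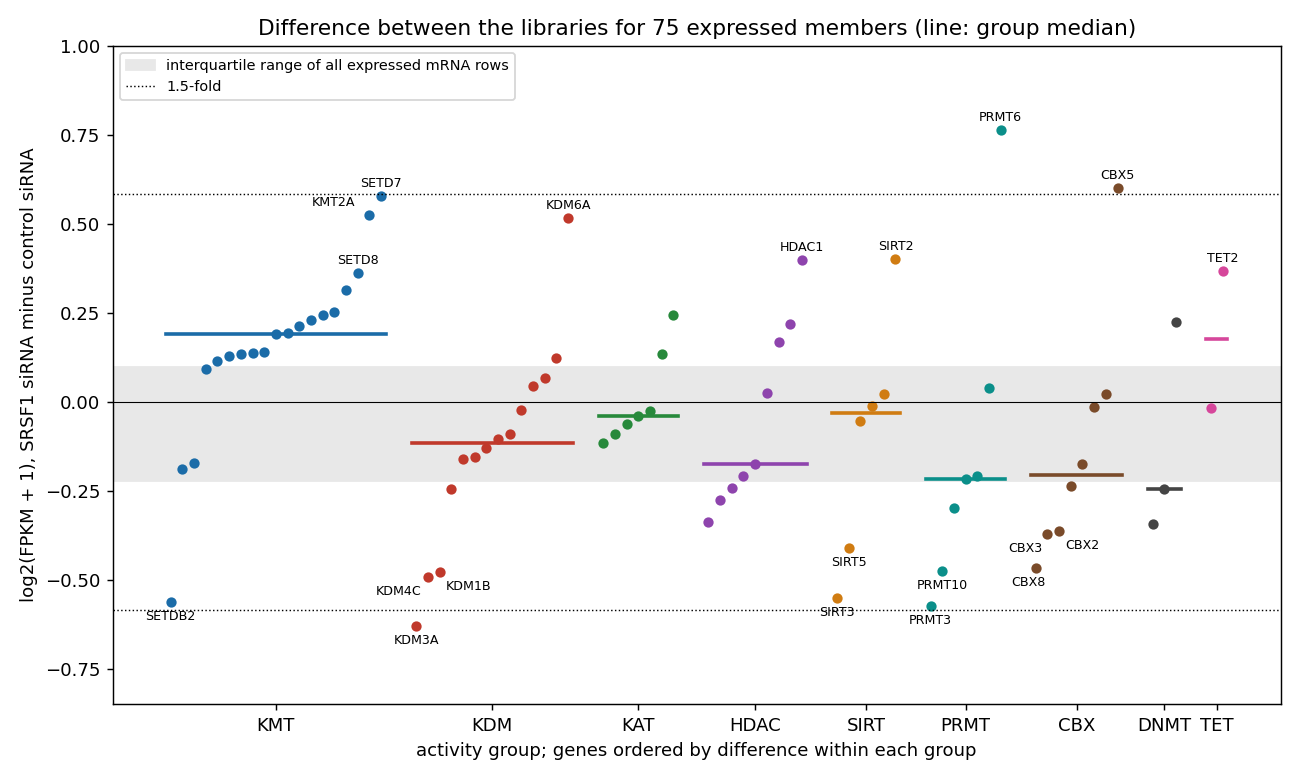
Log2(FPKM + 1) difference, SRSF1 siRNA minus control siRNA, of each of the 75 expressed members by activity group, with group medians as lines, the interquartile range of all expressed mRNA rows as a grey band and dotted lines at 1.5-fold. KMT stands for the KMT, SETD and EZH genes, whose median is 0.19. PRMT6 and CBX5 lie above the upper dotted line and KDM3A below the lower one.

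On the side of the erasers, 4 of the 14 expressed lysine demethylases were above and 10 below their control level, with a median of -0.12. Those above made up 28.6%, against 40.1% of all expressed mRNA rows. KDM3A, which removes methyl groups from lysine 9 of histone H3 and is induced in hypoxia, fell from 20.2 to 12.7 FPKM, a ratio of 0.629 (0.588 to 0.671) on at least 2287 and 1482 fragments. It lies on chromosome 2 from 86440647 to 86492716 on the plus strand (GENCODE 29, GRCh38). KDM3B, its paralog, was at 18.0 and 15.0 FPKM (0.836 times), so that KDM3A was 1.12 times KDM3B in the control and 0.844 times in the SRSF1 siRNA library.

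The 3 expressed KDM4 genes, which act on methylated lysines 9 and 36, were lower: KDM4C at 9.71 and 6.62 FPKM (0.682 times, 0.619 to 0.750), KDM4A at 10.8 and 9.82 FPKM and KDM4B at 3.75 and 3.25 FPKM. Both amine oxidases that demethylate lysine 4 were lower too. KDM1A (LSD1), the most abundant demethylase with 41.8% and 42.3% of the family's FPKM, was at 114 and 106 FPKM (0.930 times, 0.902 to 0.959), and KDM1B (LSD2) at 5.04 and 3.34 FPKM (0.661 times, 0.577 to 0.757). KDM5A and KDM5B, which also act on lysine 4, were at 13.4 and 12.6 FPKM and at 17.4 and 15.6 FPKM, whereas their X-linked relative KDM5C was at 19.2 and 21.0 FPKM (1.09 times). The KDM2 genes, which bind unmethylated CpG islands, lay near their control levels, with KDM2A at 18.7 and 19.3 FPKM and KDM2B at 12.3 and 12.1 FPKM.

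The demethylases of lysine 27, which counteract EZH2, stood on the other side. KDM6A (UTX) was at 4.71 and 7.16 FPKM, a ratio of 1.52 (1.38 to 1.68), with the highest log2 difference of the demethylases (0.52). KDM6B (JMJD3) was at 5.34 and 5.63 FPKM, and its interval included 1. The ratio of KDM6A to KDM6B was 0.882 in the control and 1.27 in the SRSF1 siRNA library. Of 11 expressed demethylases and related genes under other names, 4 were above (36.4%, against 40.1% of all expressed mRNA rows) and 7 below. The median of the 11 was -0.06, from JMJD7 at 0.585 times (0.393 to 0.861) to JMJD6 at 1.21 times (1.13 to 1.29).

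Class I histone deacetylases, which apart from HDAC8 are the enzymes of the SIN3, NuRD and NCoR complexes, differed among themselves. HDAC1 was at 54.0 and 71.4 FPKM, a ratio of 1.32 (1.26 to 1.39), whereas its close paralog HDAC2 was at 40.9 and 41.6 FPKM (1.02 times, 0.983 to 1.05). HDAC1 thus went from 33.6% to 42.2% of the summed FPKM of the HDAC genes, and from 1.32 to 1.72 times HDAC2. HDAC3, the enzyme of the NCoR complexes, was lowest at 30.2 and 23.6 FPKM (0.784 times, 0.724 to 0.850), and HDAC8, which deacetylates cohesin, was at 18.5 and 15.5 FPKM (0.838 times).

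The signal-regulated class IIa enzymes were scarce, with HDAC7 at 7.19 and 8.20 FPKM (1.14 times), HDAC9 at 3.43 and 2.83 FPKM and HDAC5 at 2.47 and 1.87 FPKM (0.755 times). HDAC10, which acts on polyamines, was at 1.504 and 1.915 FPKM, and HDAC11 at 1.21 and 0.963 FPKM, both with intervals that included 1. Over the 9 expressed HDAC genes, 4 were above (44.4%, against 40.1% of all expressed mRNA rows) and 5 below, with a median of -0.17. This sign turned with no filter on low values (0.02 over 11), with a mean of at least 5 FPKM (0.02 over 5) and with rescaled columns (0.01 over 11), so the group had no steady direction.

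Their partners were more often higher. Among 18 subunits of deacetylase complexes, 12 were above (66.7%, against 40.1% of all expressed mRNA rows) and 6 below their control level. The median log2 difference of 0.16 was the highest of the 11 partner lists. None of the 18 passed 1.5-fold on the log2(FPKM + 1) scale. MBD2, which brings NuRD to methylated DNA, was at 17.3 and 26.2 FPKM (1.51 times, 1.40 to 1.64), and MTA3 at 7.26 and 5.11 FPKM (0.704 times, 0.638 to 0.776). MBD3, which replaces MBD2 in another form of NuRD, was at 18.1 and 13.99 FPKM. The median transcript of these subunits has 5765 bases, and their median difference was 0.12 once the trend on length and GC was taken out.

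**Figure D4:**
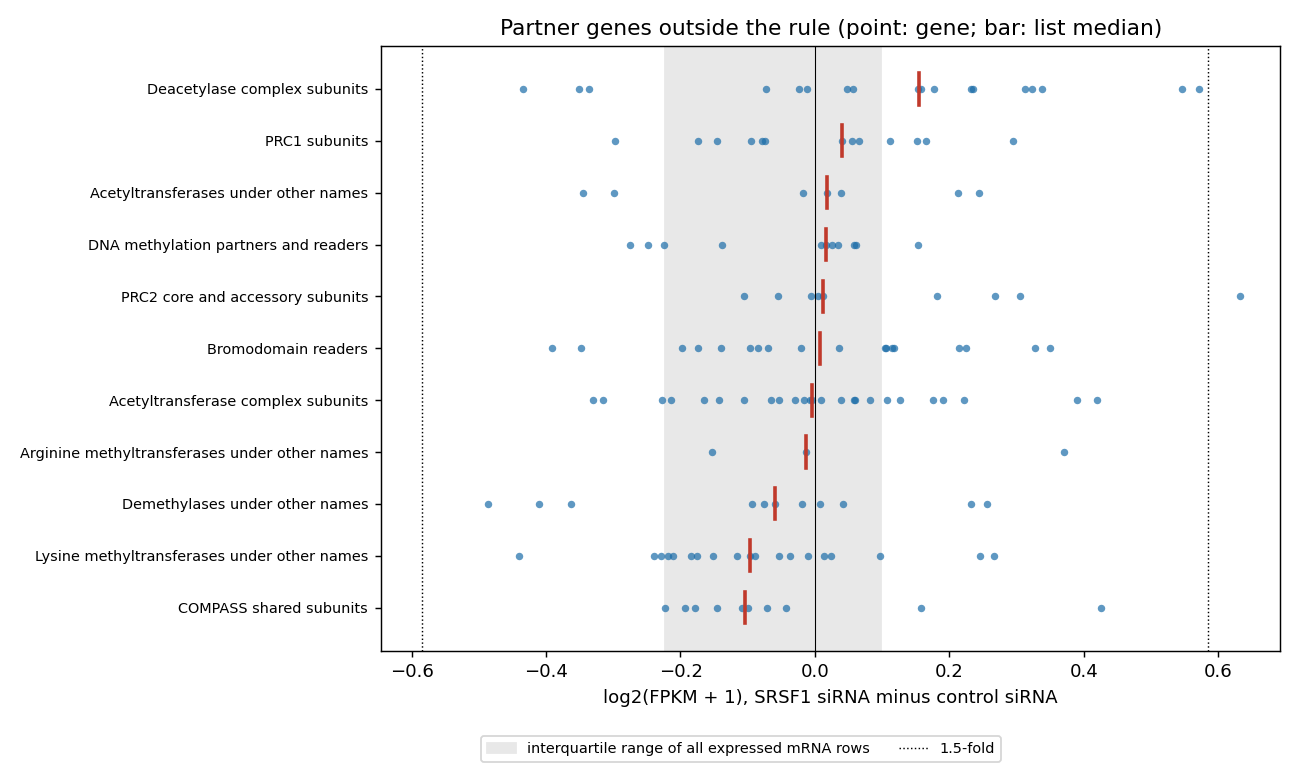
Log2(FPKM + 1) difference, SRSF1 siRNA minus control siRNA, of 143 expressed partner genes outside the symbol rule, by list. Points are genes, some in more than 1 list, and red bars are list medians. The grey band is the interquartile range of all expressed mRNA rows and dotted lines mark 1.5-fold. Only MTF2 passes it, 0.699% of the genes, against 0.755% of all expressed mRNA rows upwards.

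The sirtuins, deacetylases that consume NAD, fell into a mitochondrial and a nuclear or cytosolic set. SIRT3 and SIRT5, which act on mitochondrial enzymes, were at 2.46 and 1.36 FPKM (0.553 times, 0.424 to 0.716) and at 1.32 and 0.748 FPKM (0.565 times, 0.424 to 0.749). They have 2 of the 3 lowest ratios of the 75 expressed members, without passing the rule, and rest on 81 to 165 fragments per library. Exons of PSMD13, on the opposite strand and at 73.9 and 64.4 FPKM, overlap 316 exonic bases of SIRT3 (6.07%). Reads of PSMD13 could therefore be counted for SIRT3, and their part in its value was not tested. SIRT2, the cytosolic tubulin deacetylase, was at 3.17 and 4.51 FPKM (1.42 times, 1.15 to 1.76). SIRT1 was the most abundant, at 14.3 and 13.8 FPKM, followed by SIRT7 at 8.53 and 8.46 FPKM and SIRT6 at 4.20 and 4.28 FPKM, and the intervals of these nuclear enzymes included 1.

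Among the readers, heterochromatin protein 1 is encoded by CBX1, CBX3 and CBX5, which bind methylated lysine 9 of histone H3. CBX5 (HP1 alpha), concentrated at pericentric heterochromatin, rose from 11.7 to 18.3 FPKM, a ratio of 1.56 (1.49 to 1.63) on 3170 and 5100 fragments. It lies on chromosome 12 from 54230940 to 54280133 on the minus strand (GENCODE 29, GRCh38). CBX3 (HP1 gamma), the most abundant of all 85 members in the control library, was at 129 and 99.1 FPKM (0.771 times, 0.745 to 0.798), and CBX1 (HP1 beta) at 101 and 89.5 FPKM (0.884 times, 0.838 to 0.933). CBX5 thereby went from 4.85% to 8.83% of the summed FPKM of the 3 genes, and CBX3 from 10.99 to 5.43 times CBX5. With the trend on length and GC taken out, the log2 difference of CBX5 was 0.51, which no longer passed the rule. Its longest transcript has 11528 bases.

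CBX5 and CBX3, whose promoters are given above, each start next to an hnRNP gene on the opposite strand. CBX5 starts 60 bases from HNRNPA1, which was at 1248 and 966 FPKM (0.774 times, 0.753 to 0.796), so CBX5 and HNRNPA1 differed in opposite directions. CBX3 and HNRNPA2B1, at 1054 and 819 FPKM (0.778 times, 0.770 to 0.785), differed in the same direction and by nearly the same ratio. Exons of HNRNPA2B1 overlap 368 exonic bases of CBX3 (7.93%), but whether strands were told apart is not given in the sources used here. Reads of the abundant HNRNPA2B1 could therefore be counted for CBX3, and their part in its value was not tested. For CBX5 no exon overlap with HNRNPA1 was found.

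The other CBX proteins bind methylated lysine 27 as part of Polycomb repressive complex 1. CBX8 was lowest at 7.24 and 4.96 FPKM (0.685 times, 0.564 to 0.831), followed by CBX2 at 5.73 and 4.23 FPKM (0.738 times, 0.551 to 0.986) and CBX7 at 3.39 and 2.73 FPKM (0.805 times, 0.680 to 0.952). CBX6 was near its control level, at 7.17 and 7.08 FPKM. The median over all 8 CBX genes was -0.21 and kept its sign under every setting tried. Bromodomain proteins, readers of acetylated histones, had a median of 0.01 over 18 genes, from BRD3 at 0.752 times (0.712 to 0.795) to BRWD1 at 1.31 times (1.25 to 1.36).

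Exons of another annotated gene overlapped those of 33 of the 75 expressed members in GENCODE 29. The overlap covered 55.8% of the exonic bases of HDAC10 (MAPK12, same strand), 40.2% of those of KDM4A (AL451062.3, same strand), 38.6% of those of KAT5 (RNASEH2C, opposite strand), 27.1% of those of PRMT5 (PRMT5-AS1, opposite strand) and 21.4% of those of SETD6 (CNOT1, opposite strand), so these values could hold reads of the neighbour or lack shared ones. Next came KMT2A with 17.9% (AP001267.5, same strand), CBX7 with 17.9% (AL031846.2, opposite strand) and SIRT5 with 16.1% (AL441883.1, opposite strand), to which the same limit applies. No overlap was found for PRMT6, CBX5 or KDM3A. FPKM are sums over a gene and say nothing of which exons or isoforms were used.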

How the data were processed

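RNA of 2 RKO libraries, control siRNA and SRSF1 siRNA, was sequenced, and groups were taken from the labels. The authors deposited 1 FPKM value per gene and library. The aligner Bowtie 0.12.2 and the build hg19 are named per the submitters' processing notes. The sources used here do not give the counting tool, annotation, strand setting or filters. Of 64651910 and 61879680 reads in the deposited mapping summaries (other values), 70.4% and 75.9% mapped.

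Libraries were compared by the difference in log2(FPKM + 1), which understates changes of low genes. Rows with a mean FPKM of at least 1 were kept. Ratios in times are plain FPKM ratios without a pseudocount. Counts of fragments were worked back from the deposited FPKM, since FPKM equals the count times a constant over gene length and library total. They came out whole, within a relative tolerance of 2e-12, for 16210 of 16235 rows above 0 in both libraries and for all 82 members above 0. These counts are the smallest that fit: for 22 of 75 expressed members the annotated transcript exceeded 1.5 times the recovered length, so true counts may be larger and intervals narrower. Intervals are exact Clopper-Pearson 95% intervals, conditional on the summed count. They cover counting error only, since PCR copies are not independent molecules.

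Transcript length and GC content came from the longest GENCODE 29 transcript, found for 10006 expressed mRNA rows (99.4%) and all 75 expressed members. For 1 alternative, lowess curves (span 0.3) on both were subtracted. GENCODE 29 and the promoters are on GRCh38, not hg19, and served only to locate genes and neighbours. Python 3.11.15, SciPy 1.17.1, pandas 2.3.3 and statsmodels 0.14.6 were used.

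Members, activity groups and partner lists were chosen with earlier results of these data known. Named were all expressed members but 1, which is not reported here by name. The ratio and interval are given at least for those past 1.5-fold and for the highest and lowest of each group. From each partner list those past 1.5-fold were named or, where none passed, the highest and lowest. Other partner genes (WDR5, ASH2L, SUZ12, EED, MBD3, RCOR3, and EHMT1, SUV39H2, NSD1 and DOT1L without values) and the neighbours CAB39L, HNRNPA1 and HNRNPA2B1 were chosen after their values were seen. Of 157 partner symbols, 146 were in the table. With 1 library per group no test was run.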

Additional observations from a re-analysis of the deposited data

How the results depend on the processing

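The count of members past 1.5-fold was 2 higher and 1 lower as reported, and the same with all members above 0 and with a mean of at least 5 FPKM. With a pseudocount of 0.1 there were 4 higher and 5 lower (1.38% and 5.47% of all mRNA rows), and from recovered counts without a pseudocount 5 and 6 (1.52% and 5.96%). Quantile normalization, which put the median of all mRNA rows at 0.02 against -0.05, gave 5 higher and 0 lower (1.33% and 1.997%), and KDM3A was then inside the rule's limits. Columns rescaled to a fixed sum gave 2 higher and 4 lower (1.09% and 4.73%), and taking out the trend on length and GC gave 1 and 3 (0.750% and 2.78%). PRMT6 passed the rule under all 7 alternatives, KDM3A under all but quantile normalization, and CBX5 under all but removal of the trend. Those that joined under at least 1 alternative were SETD7, KDM6A, KMT2A, PRMT3, SETDB2, SIRT3, SIRT5 and KDM1B. The median difference of the members lay between -0.03 and 0.04, with a positive sign at a mean of at least 5 FPKM (0.02) and under quantile normalization (0.04). The cause of these shifts was not tested, beyond the smaller pseudocount itself, which enlarges differences of low genes. No paired analysis was possible because each group had 1 library. Low members are limited by depth: SETD9 rests on at least 35 and 30 fragments, the smallest counts that fit, and true counts may be larger.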

Other observations

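Rows that share the symbols of these genes but are of other types were not part of the comparison. All 3 antisense rows were above 0. KDM4A-AS1, the antisense RNA of KDM4A, was at 1.04 FPKM in the control library and 0.240 FPKM in the SRSF1 siRNA library, on 38 and 9 fragments (0.230 times, counting interval 0.0977 to 0.483), where KDM4A itself was at 0.906 times. Exons of the pair overlap, and without a known strand setting their reads cannot be told apart. KMT2E-AS1 was at 1.32 and 0.897 FPKM (0.679 times, 0.501 to 0.917) beside KMT2E at 1.15 times, and SETD5-AS1 at 2.67 and 2.59 FPKM. Of 20 pseudogene rows, 4 were above 0 in any library and the highest reached 1.102 FPKM (CBX3P9).

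Within 1000 bases of their start, 11 expressed members had an expressed protein-coding gene on the opposite strand that was measured here. By sign alone, member and neighbour differed in the same direction in 5 pairs and in opposite directions in 6. Among the opposite pairs, TPMT beside KDM1B was at 1.00 times (0.912 to 1.10). The intervals of PRMT7, of SETD1B and of its neighbour RHOF also included 1. Among the pairs of the same direction, that of RELL2 beside HDAC3 did so. Besides CBX5 with HNRNPA1 and SETDB2 with CAB39L, the opposite pairs included SIRT2 at 1.42 times with NFKBIB at 0.820 times (0.703 to 0.956). SETD3 at 1.26 times and CCNK, a cyclin that partners CDK12, at 1.33 times (1.22 to 1.44) differed in the same direction, as did SIRT3 at 0.553 times and PSMD13 at 0.870 times (0.826 to 0.917). These pairs were looked up after the values of CBX5 and HNRNPA1 were seen.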
